A study of Mus musculus with 2 samples.

Results

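The genes described here encode 10 chains of the receptors for granulocyte colony-stimulating factor (G-CSF), granulocyte-macrophage colony-stimulating factor (GM-CSF), interleukin 3, interleukin 6 and the interferons. They were chosen by name, and all 10 were found among the 23235 genes of the deposited table. RNA was sequenced from 2 primary mouse leukaemias, APL#1 and APL#2, with 1 library each, which the series presents as clones with unlike frequencies of leukaemia-initiating cells. In this disease, acute promyelocytic leukaemia (APL), the fusion protein PML-RAR holds granulocyte precursors at the promyelocyte stage. The labels give the genotype of both as PML-RAR KI APL on the C57BL/6-Ly5.2 strain, name the source mCG-PML-RAR transgenic mice without explaining mCG, and state 10 weeks of age and untreated for each. For APL#1, 2000000 cells were injected into a vein of non-irradiated CD45.1+ recipients, and for APL#2 200000 cells, so the dose cannot be separated from the clone. Purification on immunomagnetic columns then gave CD45.2+ cells of the spleen.

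Cytokine receptors of this kind have no enzyme of their own. Binding of the ligand brings chains together, and JAK kinases bound to their cytoplasmic parts then phosphorylate STAT transcription factors. G-CSF acts through pairs of a single chain and drives granulocyte formation, whereas GM-CSF and interleukin 3 each use a private alpha chain with a shared beta chain. Interleukin 6 and the interferons likewise need 2 different chains.

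By mean level over both libraries, expression was highest for the G-CSF receptor and lowest for the interleukin 6 receptor chains, and the one wide difference between the leukaemias was in the GM-CSF receptor alpha chain, Csf2ra. Levels are in FPKM, fragments scaled for transcript length and sequencing depth, so levels of different genes can be set side by side. Differences are log2 of (FPKM in APL#2 + 1) over (FPKM in APL#1 + 1), and the added 1 makes the difference of low genes smaller. The 4100 genes whose mean FPKM reached 1 are called measured, and 5 of the 10 receptor genes were among them: Csf3r, Csf2ra, Csf2rb, Il3ra and Ifngr1. The other 5 were under FPKM 1 in both libraries. Each leukaemia has a single library, so the differences have no replicate check and no test was run. Effects of clone, recipient mouse, injected dose and library cannot be told apart. In bulk RNA, fewer cells with a transcript and less of it per cell cannot be told apart either.

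**Figure D1:**
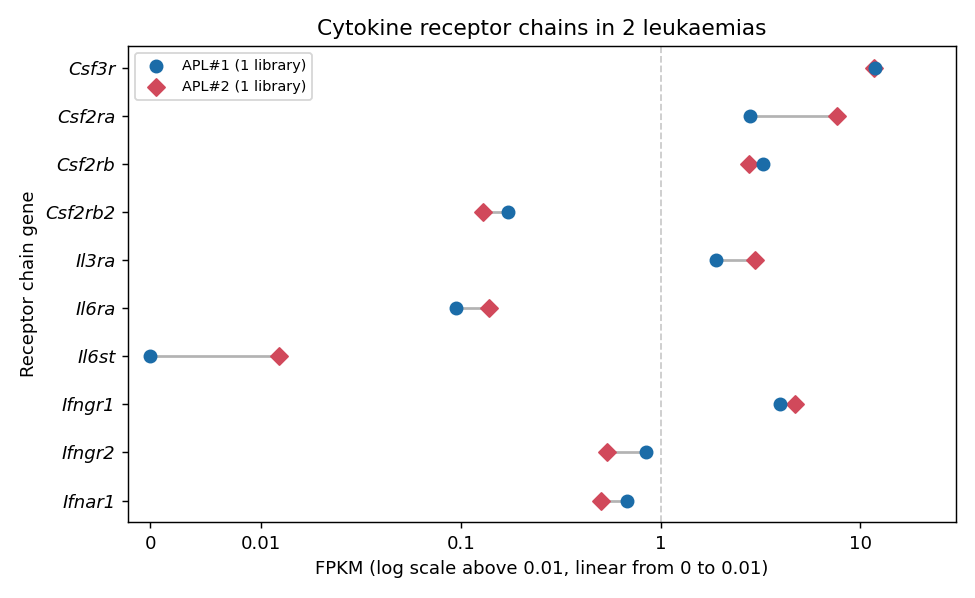
Level of each receptor gene in FPKM (horizontal axis, log scale above 0.01) in APL#1 (blue circles) and APL#2 (red diamonds), 1 library each; the dashed line marks FPKM 1. Csf3r lies at the same place in both, Csf2ra is the gene above FPKM 1 with the longest line, and Il6st is at 0 in APL#1.

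Csf3r encodes the G-CSF receptor and stood at 11.9 and 11.8 FPKM in APL#1 and APL#2. It lay above 91.8% of the measured genes by mean level and was the highest of the 10 in both libraries. Its ratio of APL#2 to APL#1 was 0.992, and its log2 difference was -0.01. Over all measured genes the median was -0.17, so relative to that median Csf3r stood at 0.16. By a depth estimate from low values, these levels correspond to about 2123 and 2278 fragments. Counting alone then gives the plain log2 ratio of Csf3r a standard error of 0.04. The authors' deposited table implies a wider one of 0.56. Of the 50-base stretches of its transcript in GENCODE M21, 11.2% occurred in transcripts of other genes, and of 100-base stretches 0.414%. Among the 5 genes found of the 6 listed for mature neutrophils, the others were far lower: Cxcr2, a chemokine receptor, stood at 0.0924 and 0.0399 FPKM and the collagenase gene Mmp8 at 0.0156 and 0.0144.

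The 250 bases upstream of the RefSeq start of Csf3r and of Csf2ra are shown because these were the gene with the highest level and the gene with the largest difference. They are given 5′ to 3′ on the strand of the gene, in RefSeq's GRCm38.p6 build, which is not the mm9 build of the expression table. Capitals mark GAGGAA, a core sequence bound by PU.1, the transcription factor of myeloid cells encoded by Sfpi1. The first lies at chr4:126024409-126024658 on the plus strand and the second at chr19:61228419-61228668 on the minus strand.
Csf3r: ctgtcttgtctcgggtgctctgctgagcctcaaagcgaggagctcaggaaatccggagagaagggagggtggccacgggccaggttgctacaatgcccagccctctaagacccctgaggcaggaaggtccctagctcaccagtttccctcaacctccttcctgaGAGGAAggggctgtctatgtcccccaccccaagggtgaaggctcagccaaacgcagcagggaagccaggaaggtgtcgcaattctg
Csf2ra: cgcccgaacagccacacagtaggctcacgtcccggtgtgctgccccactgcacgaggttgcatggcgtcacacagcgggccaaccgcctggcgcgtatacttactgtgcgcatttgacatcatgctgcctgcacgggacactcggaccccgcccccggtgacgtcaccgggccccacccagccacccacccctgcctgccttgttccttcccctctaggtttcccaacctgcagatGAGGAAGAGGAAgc
GAGGAA, searched on both strands, occurred 1 time in the Csf3r window and 2 times in the Csf2ra window, where the copies follow each other directly and the last starts 8 bases before the start site. The RefSeq table held a start for 9 of the 10 genes. Of these 9 windows, 5 held the motif: those of Csf3r, Csf2ra, Csf2rb2, Il6ra and Ifnar1. Of 32851 windows of the same length in the table, 23.3% held it. The C/EBP motif TTNNGNAA, searched in the same way, was found in 4 of the 9 windows and in 36.8% of all. It was not found in the Csf3r window and was found 1 time in that of Csf2ra. A match of letters does not show binding. Sfpi1 itself stood at 8.55 and 5.74 FPKM in APL#1 and APL#2, and Cebpa, a factor of granulocyte development, at 4.74 and 2.61.

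Csf2ra, which binds GM-CSF, stood at 2.82 and 7.62 FPKM in APL#1 and APL#2. APL#2 was thus 2.70-fold higher, with a log2 difference of 1.17, or 1.35 relative to the all-gene median. It was the 71st highest of the 4100 differences. The plain log2 ratio of Csf2ra was 1.44 with a counting standard error of 0.10, from about 268 and 784 fragments. The test statistic in the authors' deposited table implies a wider standard error of 0.80, and their table gives p = 0.0728 and q = 0.999997, a comparison of these libraries alone. None of the 50-base stretches of the Csf2ra transcript occurred in transcripts of other genes.

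Il3ra, the chain that binds interleukin 3, differed in the same direction by less. Its level was 1.90 FPKM in APL#1 and 2.98 in APL#2. The ratio of APL#2 to APL#1 was 1.57 and the log2 difference 0.46. Its place among the 4100 differences was 309. For Il3ra the counting standard error of the plain log2 ratio, 0.65, was 0.12 and that implied by the authors' deposited table was 0.99.

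Csf2rb, the beta chain that GM-CSF, interleukin 3 and interleukin 5 share, had 3.27 FPKM in APL#1 and 2.77 in APL#2. Its log2 difference of -0.18 was close to that of the median gene. Csf2rb2, a second beta chain of the mouse that serves interleukin 3 only, stood at 0.172 and 0.130 FPKM. Csf2rb was therefore 19.1-fold above Csf2rb2 in APL#1 and 21.4-fold in APL#2. The 2 genes lie side by side on chromosome 15 and are near copies, so part of their reads can be assigned to either. The first 120 coding bases of each in GENCODE M21 (GRCm38) show how alike they are, with capitals for the bases that differ between them.
Csf2rb: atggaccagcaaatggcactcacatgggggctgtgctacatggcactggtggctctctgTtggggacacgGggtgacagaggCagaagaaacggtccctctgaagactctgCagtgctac
Csf2rb2: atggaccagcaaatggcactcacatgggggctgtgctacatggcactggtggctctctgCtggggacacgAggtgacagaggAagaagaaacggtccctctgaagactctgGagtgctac
In this stretch 4 of 120 bases differ. Over the whole coding sequence, 2503 of 2628 aligned bases were identical (95.2%), and the longest identical run was 242 bases. Of the 50-base stretches of Csf2rb, 18.4% occurred in transcripts of other genes, first of all those of Csf2rb2, and of 100-base stretches 6.96%. For Csf2rb2 these shares were 19.4% and 7.20%. Read length is not among the details given, and how the reads of this pair were shared out was not tested. Summing the pair moved the ratios that follow by less than their counting error, which the low level of Csf2rb2 fixed in advance.

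In this pair of libraries the alpha chains stood in another proportion to the beta chain. In APL#1 there was 0.862 of Csf2ra for each unit of Csf2rb in FPKM, and in APL#2 2.75. For Il3ra the ratios were 0.580 and 1.08. The ratio to Csf2rb was thus 3.19-fold higher in APL#2 for Csf2ra and 1.85-fold for Il3ra. The authors' deposited table implies standard errors of plain log2 ratios of 0.80 for Csf2ra, 0.99 for Il3ra and 0.68 for Csf2rb. Whether the proportions differ beyond such errors was not tested. Set against the summed level of both beta chains, Csf2ra had ratios of 0.819 and 2.63. Csf3r exceeded Csf2ra 4.21-fold in APL#1 and 1.54-fold in APL#2. These are ratios of RNA and not of receptors at the cell surface.

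The interleukin 6 receptor was near the limit of detection. Il6ra, the chain that binds interleukin 6, stood at 0.0947 and 0.139 FPKM in APL#1 and APL#2, about 16 and 26 fragments. Il6st encodes gp130, the signalling chain that interleukin 6 shares with its whole family, and it was listed at 0 in APL#1 and at 0.0123 FPKM in APL#2, about 6 fragments. An exact 0 in such a table can also be a failed estimate. Other chains that pair with gp130 ranged from 0 to above FPKM 1: Lifr and Osmr were listed at 0 in both libraries, Il27ra stood at 0.0428 and 0.178 FPKM, and Il11ra1, the alpha chain for interleukin 11, at 1.34 and 0.841. None of the 50-base stretches of Il6ra or Il6st occurred in transcripts of other genes.

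Of the interferon receptors, Ifngr1, the chain that binds interferon gamma, was the only one of the 3 genes that was measured. Its level was 3.99 FPKM in APL#1 and 4.74 in APL#2. The ratio of APL#2 to APL#1 was 1.19 and the log2 difference 0.20. Ifngr2, its partner that brings in the kinase JAK2, stood at 0.843 and 0.537 FPKM, so that Ifngr1 exceeded it 4.73-fold in APL#1 and 8.81-fold in APL#2. The plain log2 ratio of Ifngr2 was -0.65 with a counting standard error of 0.18, and the authors' deposited table implies a wider one of 1.13. Ifnar1, a chain of the type I interferon receptor, stood at 0.676 and 0.504 FPKM. Its partner Ifnar2 stood at 1.61 and 1.40 FPKM, above Ifnar1 2.38-fold and 2.78-fold. Both partner pairs thus had one chain at FPKM 1 or more and one below it, in both libraries.

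Ordered by level, APL#1 had Csf3r first, then Ifngr1, Csf2rb, Csf2ra, Il3ra, Ifngr2, Ifnar1, Csf2rb2, Il6ra and Il6st. In APL#2 the order was Csf3r, Csf2ra, Ifngr1, Il3ra, Csf2rb, Ifngr2, Ifnar1, Il6ra, Csf2rb2 and Il6st. Csf2ra thus took place 4 in APL#1 and place 2 in APL#2. Neighbours whose 95% counting interval of the ratio held 1 were Ifngr2 and Ifnar1 in both libraries, and in APL#2 also Il3ra with Csf2rb (1.08, interval 0.951 to 1.22) and Il6ra with Csf2rb2 (1.07, interval 0.644 to 1.79). These intervals cover counting error only and rest on the estimated depth and on 1 transcript length per gene.

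As a list, the receptor genes did not differ in one direction. Of the 10, 5 were higher and 5 lower in APL#2 in plain FPKM, and the median log2 difference was 0.00 (-0.17 for all measured genes). Relative to the all-gene median 8 of the 10 lay above it, as did 4 of the 5 that were measured. With an added 1, genes near FPKM 0 have differences near 0 and so lie above that median, which holds for Il6st, Il6ra and Csf2rb2. A log2 difference of 1 or more, that is 2-fold on this scale toward APL#2, was found in 1 of the 5 measured genes, Csf2ra, and in 2.1% of all measured genes. A log2 difference of -1 or less was found in 0 of the 5 and in 2.44% of all measured genes. By the authors' deposited q-values, 0 of the 10 genes had a q of at most 0.05, against 0.0473% of all genes, and Csf2ra had the smallest p of the 10. No test lies behind the counts of log2 differences.

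**Figure D2:**
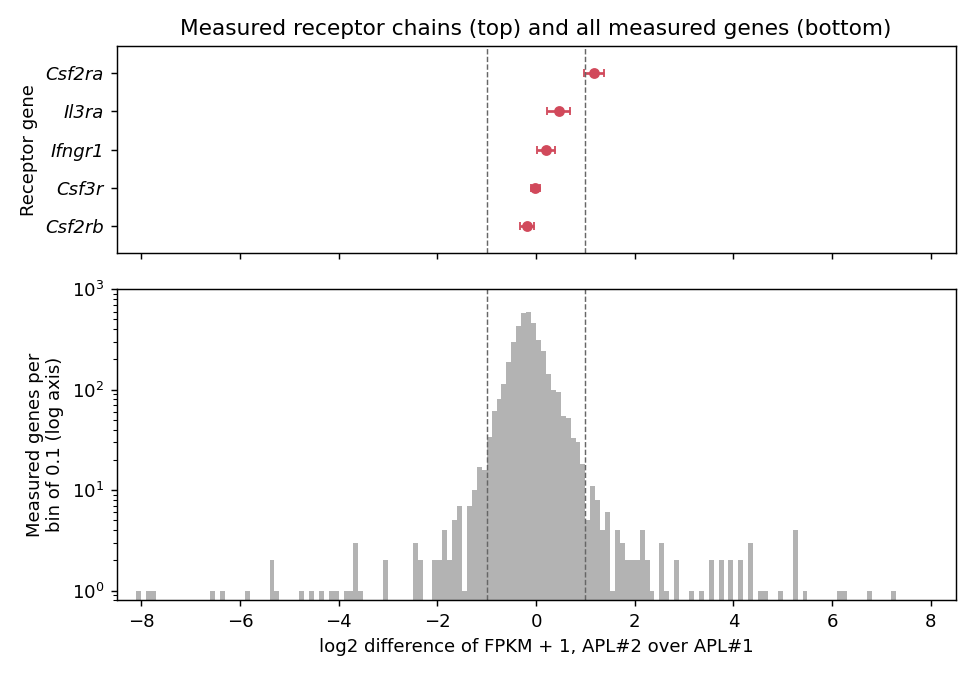
Top: log2 difference of FPKM + 1 (APL#2 over APL#1) for the 5 measured receptor genes, with bars of 1.96 counting standard errors of the plain log2 ratio. Bottom: number of all 4100 measured genes per bin of 0.1 on a log axis, with dashed lines at 2-fold; of the 5 receptor genes Csf2ra alone has its point beyond a dashed line.

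Csf2ra lies at the far end of mouse chromosome 19 (mm9, 61300304 to 61304321 as the table gives it), and the genes of this chromosome were higher in APL#2 as a whole. Of the other 133 measured genes of chromosome 19, 132 lay above the all-gene median. Their median difference was 0.60 relative to all genes, with an interquartile range of 0.43 to 0.84, against 1.35 for Csf2ra. Genes with a larger difference were 5 of the 133: Anxa1, Neat1, Snord22, Macrod1 and Malat1, of which Anxa1 encodes an annexin and Neat1 and Malat1 are long noncoding RNAs. A log2 difference of 1 or more was found in 8 of the 133, and in 2.1% of all measured genes. The nearest measured gene, Prdx3, a mitochondrial peroxiredoxin 360.3 kb away, stood at 1.099 and 1.159 FPKM in APL#1 and APL#2, and the next, Eif3a, at 2.63 and 4.56. The difference of Csf2ra was thus above that of its chromosome's upper quartile, and what part of it goes with the chromosome was not tested.

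**Figure D3:**
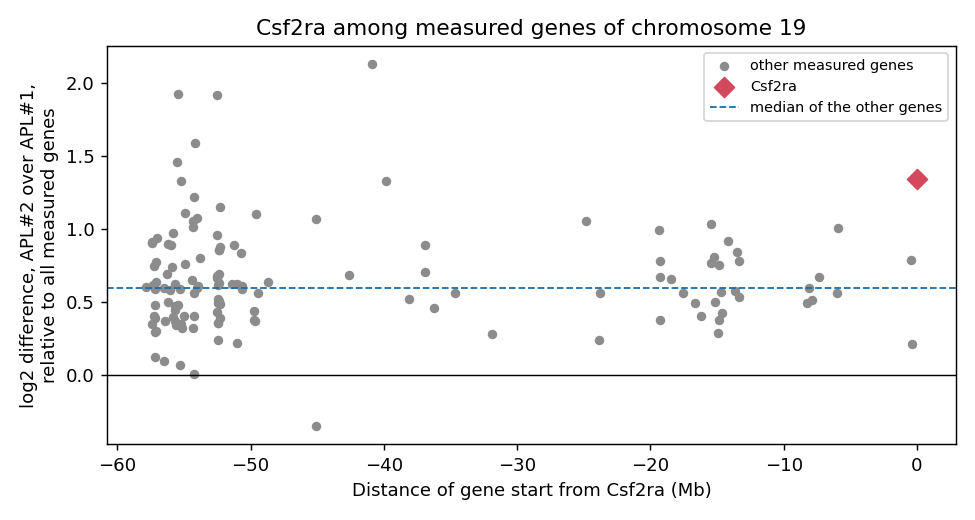
Log2 difference relative to the all-gene median (vertical axis) of the measured genes of chromosome 19 by distance of their start from that of Csf2ra in Mb (horizontal axis). Nearly all grey points lie above 0, and Csf2ra (red diamond, 1.35) lies above the dashed line at the median of the other genes (0.60).

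The other receptor genes lie on chromosomes whose genes stood near the all-gene median. Il3ra (mm9 chromosome 14, 15179008 to 15188004) stood at 0.63 relative to all genes, whereas the 141 measured genes of chromosome 14 had a median of -0.05 and 11 of them were above Il3ra. Ifngr1 (chromosome 10, 19311763 to 19330031) stood at 0.37, with a median of -0.02 over 202 other genes, 23 of which were above it. Csf3r (chromosome 4, 125701902 to 125722219) stood at 0.16 beside a median of -0.04 over 245 genes. Csf2rb (chromosome 15, 78156419 to 78181431) stood at -0.01 beside 0.00 over 174 genes. Ifnar2, Ifnar1 and Ifngr2 lie close together on chromosome 16, whose measured genes had a median of -0.04.

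Other receptors of myeloid growth factors and cytokines differed little. Of 22 listed genes 7 were measured, none was at least 2-fold higher or lower, and their median difference was -0.08. All 7 lay above the all-gene median, as did most of the measured receptor genes described here. The chemokine receptor gene Cxcr4, which holds cells in the bone marrow, was the highest of them at 7.79 and 11.0 FPKM in APL#1 and APL#2. Il17ra stood at 3.66 and 4.61 FPKM, the tumour necrosis factor receptor genes Tnfrsf1a at 2.74 and 2.54 and Tnfrsf1b at 0.817 and 1.21. Kit, the receptor of stem cell factor, stood at 1.46 and 1.26 FPKM. The M-CSF receptor gene Csf1r stood at 0.0667 and 0.101, Il5ra, the alpha chain for interleukin 5, at 0.0313 and 0, and Epor was listed at 0 in both; these 3 are named with their values known. Csf2rb had the alpha chains of GM-CSF and interleukin 3 above FPKM 1 and that for interleukin 5 near 0.

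Of 26 further chains of the same receptor families 3 were measured. None of these was at least 2-fold higher or lower (2.1% and 2.44% of all measured genes). Il2rg, the common gamma chain, stood at 4.79 and 4.03 FPKM in APL#1 and APL#2, Crlf2, which binds TSLP, at 4.02 and 3.58, and Il11ra1, described with the gp130 chains, was the third. Il7r, the usual partner of Crlf2, stood at 0.00582 and 0.00538 FPKM; it was named once its values were known.

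The ligands were nearly all at or near 0 in these cells. Csf2, Csf3, Il3, Il5, Ifng and Ifnb1 were among 8 of 15 ligand genes listed at 0 in both libraries. Osm, which encodes oncostatin M, was the 1 measured ligand, at 1.70 and 0.655 FPKM in APL#1 and APL#2, a log2 difference of -0.71.

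The measured kinases and STAT factors below the receptors were at similar levels in both leukaemias. Of 12 listed genes 9 were measured, none was at least 2-fold different, and their median difference was -0.08. Jak1 stood at 2.83 and 2.15 FPKM in APL#1 and APL#2, Jak3 at 1.75 and 1.68, and Tyk2 at 1.56 and 1.12. Jak2, which serves the G-CSF, GM-CSF and interleukin 3 receptors, was below the level called measured, at 0.217 and 0.496 FPKM, and is named with its values known. Like Csf2ra, Jak2 lies on chromosome 19. Stat5a stood at 1.69 and 1.55 FPKM and Stat6 at 1.74 and 1.55. Of 19 adaptor and kinase genes found, 10 were measured, with a median of -0.19. Again none was at least 2-fold higher or lower, beside the same shares of all measured genes. The tyrosine kinase gene Fes led at 6.57 and 5.78 FPKM, with Mapk3 at 4.53 and 3.17 and the adaptor gene Grb2 at 3.64 and 2.57.

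Inhibitors of the pathway had 5 measured members of 22, all above the all-gene median, with none at least 2-fold different and a median of -0.03. Ptpn6, the phosphatase SHP-1, stood at 4.77 and 6.19 FPKM in APL#1 and APL#2, Ptprc, which encodes CD45, at 4.66 and 4.10, and Inpp5d, the phosphatase SHIP-1, at 2.75 and 2.48. The feedback inhibitors that STAT factors induce were all low. Socs1 stood at 0.396 and 0.0796 FPKM, Socs3 at 0.174 and 0.0706 and Cish at 0.0626 and 0.00826, and Socs2 was listed at 0 in both. These 4 are named with their values known, and none was measured.

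Genes known to respond to STAT3 or STAT5 went both ways. Of 20 listed genes 10 were measured, and their median difference was -0.24. On the log2(FPKM + 1) scale, 1 of the 10 was at least 2-fold lower in APL#2 and none higher (2.44% and 2.1% of all measured genes). The gene past 2-fold on this scale was Junb, an immediate early transcription factor, at 12.8 and 5.76 FPKM in APL#1 and APL#2. The kinase gene Pim1 stood at 1.83 and 0.731 FPKM and Osm, named among the ligands, had nearly the same difference. Id1 went the other way, at 1.29 and 2.88 FPKM. In plain FPKM, Pim1 was 2.50-fold and Osm 2.60-fold lower in APL#2, and Id1 was 2.24-fold higher. Ccnd3, cyclin D3, stood at 6.73 and 6.59 and the survival gene Mcl1 at 4.81 and 5.57.

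Genes known to respond to interferons had 10 measured members of 40 found, of which 8 lay below the all-gene median. The median difference was -0.29 (-0.17 for all measured genes). On the log2(FPKM + 1) scale, 1 of the 10 was at least 2-fold lower in APL#2 and none higher (2.44% and 2.1% of all measured genes). That gene was B2m, which encodes beta-2 microglobulin, at 91.8 and 28.8 FPKM in APL#1 and APL#2. It lies on chromosome 2. The immunoproteasome genes Psmb8 (3.69 and 1.57 FPKM) and Psmb9 (4.41 and 2.12) came next, 2.35-fold and 2.08-fold lower in plain FPKM. H2-D1 and H2-K1, MHC class I heavy chains with close copies, stood at 222.9 and 182.5 and at 101.1 and 82.0 FPKM. Typical type I interferon genes were near 0 in both: Ifit1 stood at 0 and 0.00664 FPKM, Mx1 at 0.00701 and 0 and Isg15 at 0.317 and 0.0878, again named with values known.

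**Figure D4:**
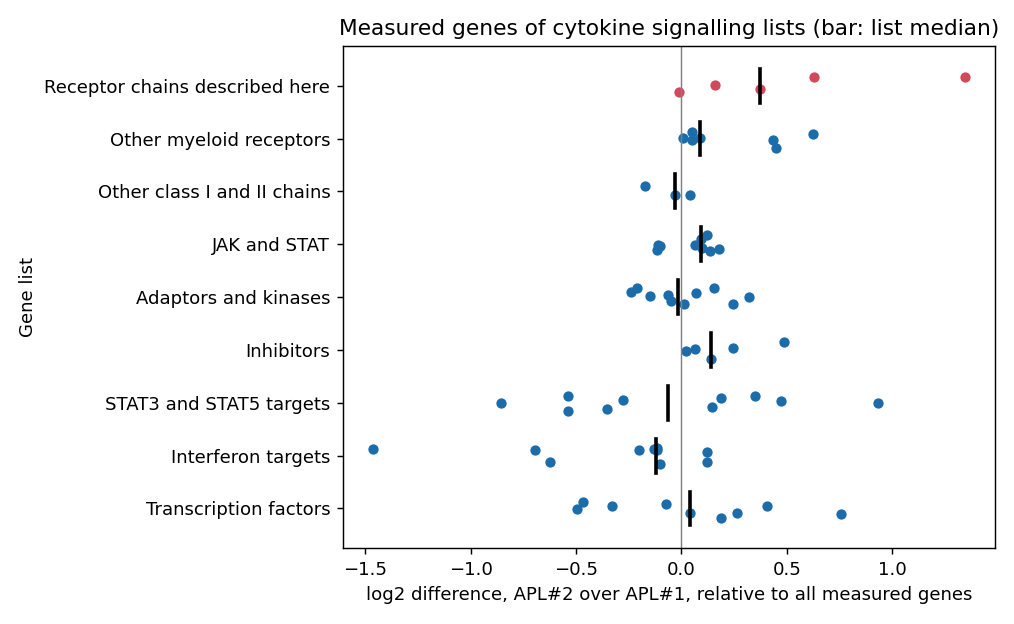
Log2 difference relative to the all-gene median (horizontal axis) of each measured gene, by list (vertical axis, points spread for legibility); black bars are list medians. The receptor chains (red) reach from Csf2rb at -0.01 to Csf2ra at 1.35, and the STAT and interferon target lists hold the points farthest to the left.

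Among 9 transcription factor genes known to act on myeloid receptor genes, all were measured and the median difference was -0.13. None was at least 2-fold higher or lower (2.1% and 2.44% of all measured genes). Myb stood at 13.1 and 14.0 FPKM in APL#1 and APL#2, Cebpe, a factor of later granulocyte stages, at 8.20 and 7.40, and Gfi1 at 5.99 and 3.49. Of the 9, 4 were higher in APL#2 in plain FPKM and 5 lower. Rara, the retinoic acid receptor gene, stood at 7.20 and 8.65 FPKM and Klf5 at 1.03 and 2.05.

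With 2 libraries, likeness to another gene is a match of 2 values. Nearest to Csf2ra in log2(FPKM + 1) were Sh3kbp1 (3.15 and 6.85 FPKM), Eef1g (3.51 and 7.90) and Adpgk (2.79 and 6.02), at Euclidean distances of 0.18, 0.24 and 0.30. Eef1g also lies on chromosome 19. Nearest to Il3ra were Acpl2 (1.91 and 2.96 FPKM), Plec (1.87 and 2.996) and Ddb1 (1.92 and 2.91), at distances of 0.01, 0.01 and 0.03.

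The labelled cell type was checked against its markers. All 6 promyelocyte markers were measured in both libraries, with Mpo at 661.8 and 157.3 FPKM in APL#1 and APL#2, Ms4a3 at 7.85 and 15.9 and Ctsg at 7.89 and 8.99. A log2 difference of -1 or less, toward APL#1, was found for Mpo and Elane, 2 of these 6 markers, beside 2.44% of all measured genes. Ms4a3 lies on chromosome 19, whose genes were higher in APL#2 as a whole. All 7 B cell markers were under FPKM 1 in both, with a summed level of 0.245 FPKM in APL#1 and 0.511 in APL#2, as were all 6 T cell markers found (0.0526 and 0.261), all 5 dendritic cell markers (0.0300 and 0.0395) and all 4 erythroid markers found (0.742 and 0.526). Of 7 macrophage markers found, 2 were measured, Vcam1 (3.94 and 7.47 FPKM) and Cd68 (1.54 and 1.01). The summed level of the 7 was 5.60 and 9.17 FPKM, higher in APL#2 as Csf2ra was. Vcam1 made up most of this sum in both libraries, and Cd68 was lower in APL#2. In plain FPKM, 3 of the 7 were higher in APL#2 and 3 lower. The defining C1qa stood at 0.0597 and 0.0552 and Spic at 0 in both. Emr1, another macrophage marker, stood at 0.0230 and 0.537 FPKM. Of 5 monocyte markers Ly6c2 alone was measured (224.2 and 130.5 FPKM), and Csf1r and Ccr2 (0.160 and 0.253) were under FPKM 1. In the lists for natural killer cells, megakaryocytes and stroma with endothelium, 1 marker each was measured: Nkg7 (37.3 and 26.7 FPKM), Itga2b (2.34 and 3.95) and Pecam1 (3.62 and 1.62), while Ncr1, Pf4 and Col1a2 were listed at 0 in both. The part of other cells in the difference of Csf2ra was not tested.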

How the data were processed

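RNA sequencing values of 2 libraries, 1 per leukaemia, were taken from the gene table that the authors deposited. TopHat2 2.0.10, Cufflinks, Cuffdiff and the mm9 build are listed, without their roles, in the submitters' processing notes. Annotation, read length, strand, filters and scaling were not stated in the labels or headers used here. The values deposited by the authors were read as FPKM, because its columns are laid out as Cuffdiff writes them and its values are neither negative nor whole. The authors' deposited test statistic, a score per gene, and their p-value and q-value were taken as given, per the file headers. The standard error implied by the table is the plain log2 ratio divided by that statistic.

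Differences were computed with a pseudocount of 1 over all 23235 genes, and genes whose mean FPKM reached 1 were called measured. The receptor genes and all lists were chosen with earlier results of these data known. In each list the 3 genes with the highest mean, the 3 with the largest difference and any gene at least 2-fold different could be named among measured genes. Kit, Stat5a, Sfpi1, genes that were not measured, chromosome 19 genes and cell type markers fall outside this rule and were named with their values known. For the 2 measured receptor genes with the largest difference, the 3 nearest genes were named.

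Depth was estimated from 3168 genes with mean FPKM under 0.2 and above 0 in both libraries. The value of APL#1 over that of APL#2 was most often 1.08 (305 genes, tolerance 0.1%), which is what equal fragment numbers would give. From 23 of 69 such genes with 1 transcript, a single fragment on a 1 kb transcript was taken as 0.0194 FPKM for APL#1 and 0.0180 for APL#2. Fragment numbers used the longest principal protein-coding transcript in GENCODE M21. Counting errors derived from them cover no other error. Calculations used Python 3.11.15, pandas 2.3.3, numpy 2.4.6 and Biopython 1.88, and the calls and the depth estimate were tested on simulated data. Other pseudocounts, low-value filters, scalings, windows and a summed beta chain were tried.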

Additional observations from a re-analysis of the deposited data

How the results depend on the processing

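No paired analysis was possible because each leukaemia has 1 library. Across 10 alternative settings, Csf2ra was the 1 measured receptor gene at least 2-fold higher in APL#2 in all but one: with a pseudocount of 5 the count was 0. The count of genes at least 2-fold lower was 0 in every setting. The log2 difference of Csf2ra ranged from 0.69 to 1.40. The median difference of the receptor genes, 0.00, was 0.18 relative to the median of measured genes, 0.19 relative to the median outside chromosomes 2, 6 and 19, and 0.58 over the 2 genes left at a mean FPKM of at least 5; other settings moved it by less than 0.1. Of 69 values of single receptor genes, 54 moved by less than 1.96 counting standard errors (or by less than 0.1 for Il6st), 15 moved by more, and no gene past 2-fold changed direction. The direction of 4 receptor genes near 0 turned under at least 1 other scaling. Csf3r, -0.01 as deposited, stood at 0.16 to 0.21 under the 3 other scalings. Csf2rb, -0.18 as deposited, stood between -0.01 and 0.01, Csf2rb2, -0.05 as deposited, ranged from -0.02 to 0.14, and Ifnar1, -0.16 as deposited, from -0.07 to 0.03. Ratios to Csf2rb moved little with a summed beta chain, as the low level of Csf2rb2 ensured. The median of measured genes within 5 Mb of Csf2ra was 0.50 over 2 genes, which stood at 0.21 and 0.79. A window of 2 Mb held the same 2 genes, so its equal median was no check. Within 10 Mb the median was 0.58 over 8 genes. Depth limits Il6ra, Il6st and Csf2rb2, which rest on about 42 fragments or fewer in each library.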
